A study of Sus scrofa with 6 samples.

Results

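The miR-193 and miR-365 hairpins are neighbours in the pig genome, and their products were followed in cultured immature Sertoli cells, the somatic cells that support germ cells in the testis tubule, with and without a vitamin C derivative. Members were chosen by name, as every entry of the deposited table called miR-193a, miR-193b or miR-365, with or without an arm. This gave 4 of 1645 entries (358 known pig miRNAs and 1287 predicted ones): miR-193a-5p, miR-193a-3p, miR-365-3p and miR-365-5p. No entry is named miR-193b. The 3 control libraries came from cells with no added agent, and the 3 AA2P libraries from cells given 250 µM AA2P, a stable form of vitamin C (the sesquimagnesium salt of L-ascorbic acid 2-phosphate, as a hydrate). All cells came from testes at 80 to 90 days of gestation, were kept in medium with 10% fetal bovine serum and antibiotics, and had been in culture for 6 h when AA2P was added. The labels give no treatment length, breed or number of animals, nor do they tell if the libraries came from separate cultures, so p-values measure only the spread between these libraries, which may be technical.

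A miRNA hairpin is cut into a 5p and a 3p arm, of which usually the more abundant is loaded into Argonaute and guides it to messenger RNAs that pair with its seed. In mammals miR-193 and miR-365 genes lie side by side at paralogous sites, and such clusters are best known from brown fat and muscle differentiation. Those roles are not assigned here to the site with miR-193a, and the paralogue miR-193b has no entry. miR-193a-3p is known to repress KIT and MCL1, and miR-365-3p to repress cyclin D1 (CCND1) and BCL2, so that both are mostly described as restraints on growth and survival. In the RefSeq annotation of the Sscrofa11.1 assembly, MIR193A follows MIR365-2 on chromosome 12 with no gene starting between them, and a second copy, MIR365-1, lies on chromosome 3 within the lncRNA LOC110259927. The deposited table has 1 miR-365 entry per arm, so its reads cannot be assigned to either copy.

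Levels are in TPM, which here are shares of the reads of all listed entries with no length term. The step between low values put 1 TPM at 25.8 to 32.2 reads in the control libraries and 26.9 to 36.0 reads in the AA2P libraries. Of 4 miRNAs taken as Sertoli cell markers, miR-140-3p stood at 1048 to 1249 TPM over the 6 libraries, whereas miR-202-5p, a miRNA known from Sertoli cells, reached at most 1.01 TPM. The sum of the 4 was 1516 to 1632 TPM in controls and 2679 to 3500 TPM with AA2P, mostly through miR-184, which rose from 271 ± 29.4 to 1747 ± 354 TPM (SD, 3 libraries per group). miR-140-3p was not called in the deposited TPM, but passed as lower with quantile normalization (log2 fold change -0.30, limma adjusted p = 0.0250). The last of the 4, miR-34c, is of the same family as miR-34b, which was listed as a germ cell marker, so it does not set Sertoli cells apart from germ cells. miR-34c was at 178 ± 8.01 and 242 ± 36.3 TPM. It was called as higher (log2 fold change 0.43, limma adjusted p = 0.0464), but under 0 of the 5 other scalings given below. Summed markers of myoid and muscle cells (5 of 5 in the table) were at 167 to 227 TPM in controls and 219 to 306 TPM with AA2P, those of endothelium (2 of 2) at 98.4 to 112 and 86.8 to 111 TPM, and the only listed germ cell marker of 4 at 0 to 0.11 TPM in all 6 libraries. With only 1 of 4 in the table, the presence of germ cells cannot be judged from these markers. Of the endothelial markers, miR-126-3p was not called in the deposited TPM and passed as lower under 3 of the 5 other scalings. The part of these other cell types in the members' values was not tested. In such bulk libraries fewer cells of a type and less RNA per cell cannot be told apart.

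The order of the members by level was miR-365-3p, miR-193a-5p, miR-365-5p and miR-193a-3p in each of the 6 libraries. miR-365-3p was at 353.8 ± 102 TPM in controls and 421.7 ± 37.1 TPM with AA2P (SD, 3 libraries per group), place 88 among the known miRNAs in both groups. miR-193a-5p followed at 208 ± 20.7 and 169 ± 6.01 TPM (places 105 and 120), miR-365-5p at 44.6 ± 4.55 and 43.98 ± 2.08 TPM (places 157 and 163), and miR-193a-3p at 2.42 ± 0.125 and 2.92 ± 0.958 TPM (place 241 in both). The arm of miR-193a to which the KIT and MCL1 repression is assigned was thus the scarce one. The 2 upper places were close in control replicate 1, where miR-365-3p had 261.61 and miR-193a-5p 225.6 TPM. Neither of the 2 lower places overlapped with any other.

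**Figure D1:**
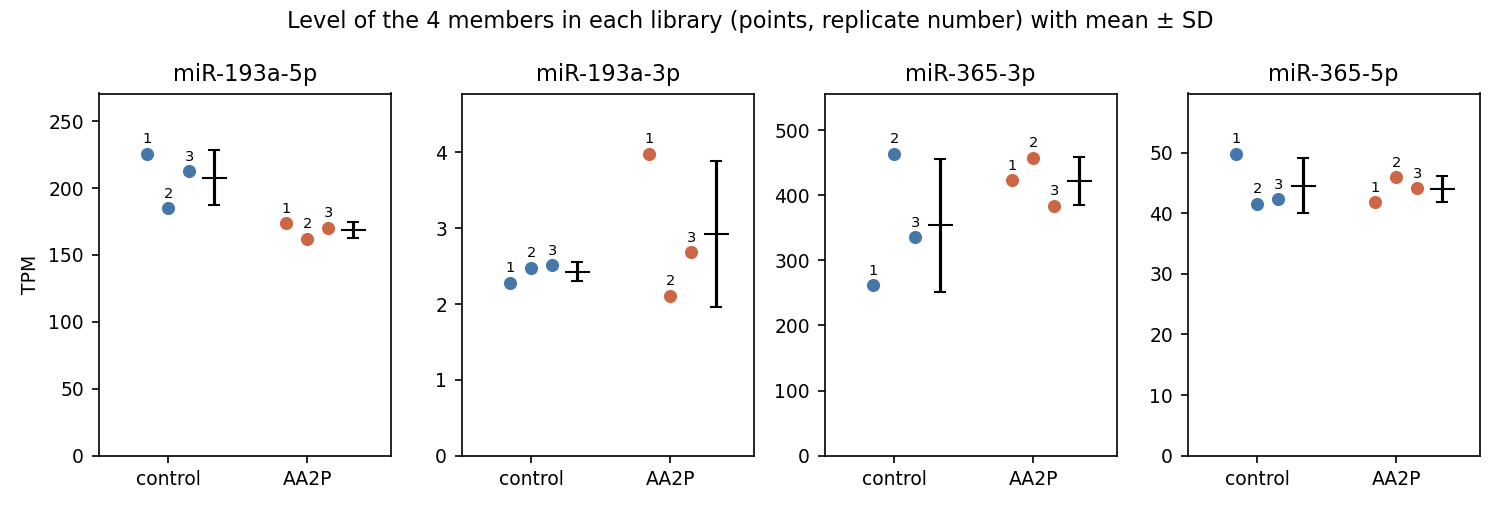
TPM of each member in the 3 control and 3 AA2P libraries, with the replicate number above each point and the mean ± SD beside it, on linear axes that start at 0. Only miR-193a-5p has groups that do not overlap, with AA2P libraries at 162 to 174 TPM and controls at 185 to 226 TPM.

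None of the 4 members was called as changed with AA2P, where 24.7% of all tested entries were (107 of 433, 86 higher and 21 lower, by limma on log2(TPM + 1) at an adjusted p under 0.05). An unadjusted p under 0.05 was reached by 1 of the 4 members and by 173 of the 433 entries. The tested entries reached 1 TPM in 3 or more libraries, and all 4 members passed this filter. Over the 433 entries the median log2 fold change was 0.25 in the deposited TPM. The 5 other scalings tried shifted that median by -0.28 to -0.18 and moved the calls from 86 higher and 21 lower to 46 and 51 with trimmed-mean scaling.

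miR-193a-5p, the abundant arm of its hairpin, was the member that differed most. Controls had 225.6, 185.11 and 212.42 TPM, and AA2P libraries 173.79, 162.15 and 170.54 TPM. All 3 AA2P libraries lay below all 3 controls. Groups without overlap were found for 49.7% of the tested entries, mostly with AA2P higher, and 9.24% had AA2P lower like miR-193a-5p. Its mean was 1.23-fold lower with AA2P, with a log2 fold change of -0.29 (95% interval -0.53 to -0.060). The limma adjusted p = 0.0746 missed the threshold, under which 4.85% of the tested entries were lower with AA2P. It was the member with an unadjusted p under 0.05. Relative to the median of all entries the difference was -0.54.

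Under each of the 5 other scalings miR-193a-5p was called as lower, with log2 fold changes of -0.60 to -0.45 and limma adjusted p = 0.00662 to 0.0148. More entries were called lower there, 36 to 51 of the 433, against 21 in the deposited TPM. These scalings shift the other entries too, and the distance of miR-193a-5p from their median ranged from -0.58 to -0.46 over the 6 scalings. It also passed in the deposited TPM when at least 10 TPM in 3 libraries were required (adjusted p = 0.0464). There 257 entries were tested and 19 called lower. Without control replicate 2, its lowest control, miR-193a-5p passed as well (adjusted p = 0.0412, log2 fold change -0.37), with 13 of 433 entries called lower. Leaving out any other library gave -0.31 to -0.23 and no call.

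miR-193a-3p, known for repressing KIT and MCL1, was at 2.28, 2.48 and 2.51 TPM in controls and at 3.98, 2.11 and 2.68 TPM with AA2P. The groups overlapped, with the highest and the lowest of the 6 values both among the AA2P libraries. These values stand for 59 to 107 reads. Counting error alone gave exact Poisson 95% intervals of 3.26 to 4.81 TPM for AA2P replicate 1 and 1.66 to 2.64 TPM for AA2P replicate 2, which do not overlap; such intervals cover counting error only. The log2 fold change was 0.17 (95% interval -0.36 to 0.70; limma adjusted p = 0.579), and its sign depended on AA2P replicate 1, without which it was -0.016, and on the scaling (-0.057 to 0.029 under the 5 others). AA2P replicate 1 also had the highest sum of the 6 blood markers, 14.1 TPM against 4.48 to 5.87 TPM in the other 5 libraries (4.81 to 5.87 in controls), with miR-223, a miRNA of myeloid cells, at 5.4 TPM and at most 0.06 TPM elsewhere. miR-142-3p, another blood marker, was at 1.47 to 2.68 TPM in all 3 AA2P libraries and 0.43 to 0.59 TPM in controls (limma adjusted p = 0.0293), and miR-486 was at 1.92 to 3.16 and 3.13 to 4.09 TPM. Of the 5 other scalings, miR-142-3p passed as higher under 3, and miR-486, not called in the deposited TPM, as lower under 3. The part of such cells in the value was not tested.

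miR-365-3p, the abundant arm that represses cyclin D1 and BCL2, was at 261.61, 463.66 and 336.02 TPM in controls and at 423.1, 457.98 and 383.9 TPM with AA2P. The controls spanned the whole range of the AA2P libraries, since control replicate 2 was the highest of the 6 and control replicate 1 the lowest. These values rest on 6757 to 16475 reads, with Poisson 95% intervals of 255 to 268 TPM for control replicate 1 and 456 to 471 TPM for control replicate 2, so the spread among controls exceeds counting error. The SD of the control log2 values was 0.41, larger than that of 95.6% of the 249 entries with a mean of at least 10 TPM, while it was 0.13 in the AA2P libraries. The log2 fold change was 0.29 with a 95% interval of -0.22 to 0.80 (limma adjusted p = 0.343); a difference of either sign lies within it. Without control replicate 1 it was 0.091, without control replicate 2 it was 0.50 (adjusted p = 0.0758), and it was -0.023 to 0.093 under the other scalings.

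miR-365-5p, the scarcer arm, had the smallest difference between the groups in the deposited TPM, but not under the other scalings. Controls had 49.79, 41.56 and 42.3 TPM and AA2P libraries 41.83, 45.98 and 44.14 TPM, and the AA2P values lay inside the control range. The log2 fold change was -0.014 with a 95% interval of -0.27 to 0.24 (limma adjusted p = 0.927). Relative to the median of the tested entries it was -0.30 to -0.26 over the 6 scalings. Under the other scalings its log2 fold change was -0.32 to -0.21 and did not pass (adjusted p = 0.0635 to 0.204).

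**Figure D2:**
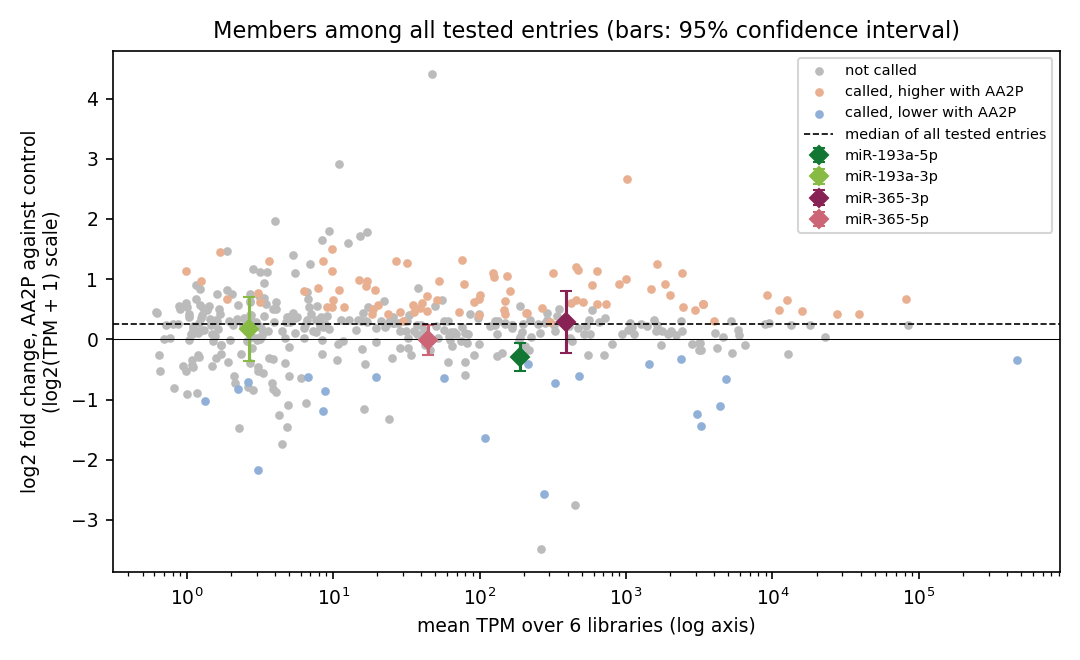
Log2 fold change of all 433 tested entries against their mean TPM (log axis), coloured by call, with the 4 members as diamonds with 95% confidence intervals. miR-193a-5p at -0.29 lies below 0 and furthest from the dashed median of 0.25, and the intervals of the other 3 members include 0.

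**Figure D3:**
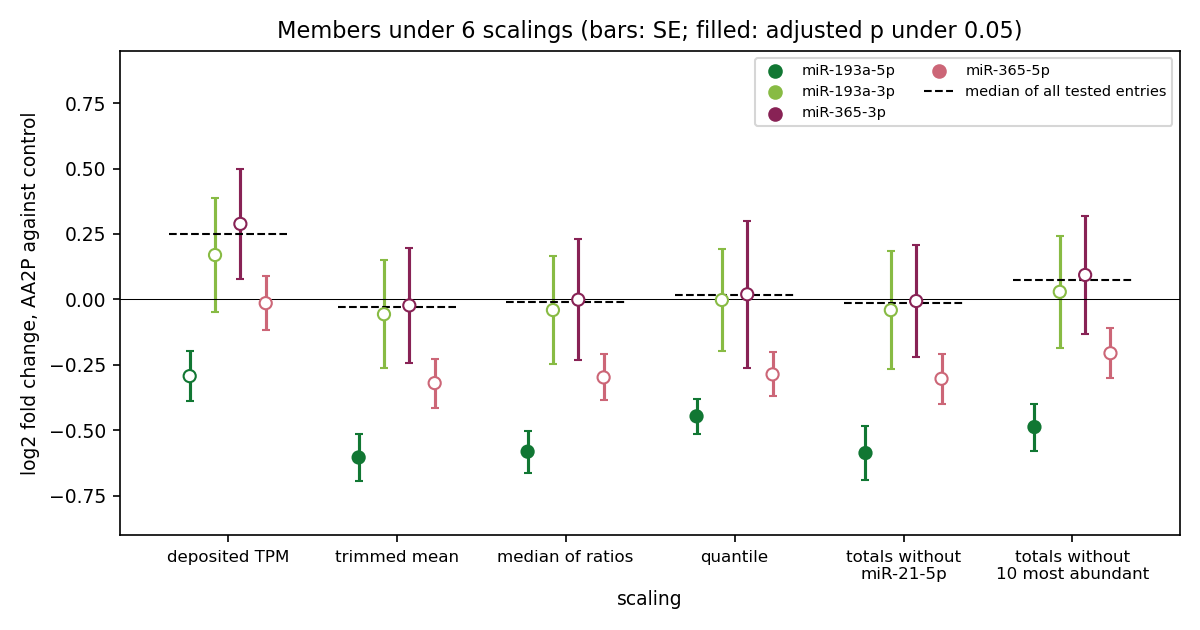
Log2 fold change of the members (points, SE bars) in the deposited TPM and under 5 other scalings, with the median of all tested entries as a dashed line and filled points for an adjusted p under 0.05. The points of miR-193a-5p are filled under the 5 other scalings and open in the deposited TPM, and miR-365-3p and miR-193a-3p stay close to the median.

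The arms of the hairpins were compared within libraries, where scaling cancels in plain shares and ratios. In the fitted ratios, with 1 TPM added to each arm, it does not cancel fully, least so for an arm as scarce as miR-193a-3p. The fits of arm use were not repeated under the other scalings. The 5p arm made up 98.8% ± 0.161 of the miR-193a reads of controls and 98.3% ± 0.493 of AA2P libraries (SD, n = 3 each). In miR-365 the arms were the other way round, with 11.8% ± 3.92 and 9.48% ± 0.725 from the 5p arm. Among 60 hairpins with both arms at 1 TPM or more on average, 38 had more of the 5p arm, and miR-193a was number 15 in order of the 5p excess and miR-365 number 48.

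The 5p to 3p ratio of miR-193a was 98.9, 74.6 and 84.6 in controls and 43.7, 76.8 and 63.6 with AA2P. The groups overlapped in AA2P replicate 2, which exceeded control replicate 2. On the log2 scale with 1 TPM added to each arm the ratio went from 5.93 ± 0.185 to 5.46 ± 0.298, a difference of -0.46, and the groups separated narrowly, at 5.74 and 5.71 for those same libraries. miR-193a had too little of the 3p arm for the comparison at a mean of 10 TPM, and among the 60 hairpins its difference was not called (limma unadjusted p = 0.0142, adjusted p = 0.181). It passed without control replicate 2 (-0.56, adjusted p = 0.0381) and without AA2P replicate 2 (-0.59, adjusted p = 0.0119). Without AA2P replicate 1 it was -0.30. None of the 60 hairpins (0%) was called, with 10 at an unadjusted p under 0.05.

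For miR-365 the 3p arm exceeded the 5p arm 5.25-fold, 11.2-fold and 7.94-fold in controls and 10.1-fold, 9.96-fold and 8.70-fold with AA2P. The AA2P libraries lay within the control range. The log2 ratio of 5p to 3p went from -2.93 ± 0.540 to -3.23 ± 0.119, and the difference of -0.30 was not called among the 39 hairpins with at least 10 TPM in both arms (limma adjusted p = 0.483). None of those 39 (0%) was called, with 4 at an unadjusted p under 0.05. Leaving out control replicate 1 or 2 moved this in opposite directions. Without control replicate 2 the difference was -0.56 and passed (limma adjusted p = 0.0287), and without control replicate 1 it was -0.025 (adjusted p = 0.963).

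**Figure D4:**
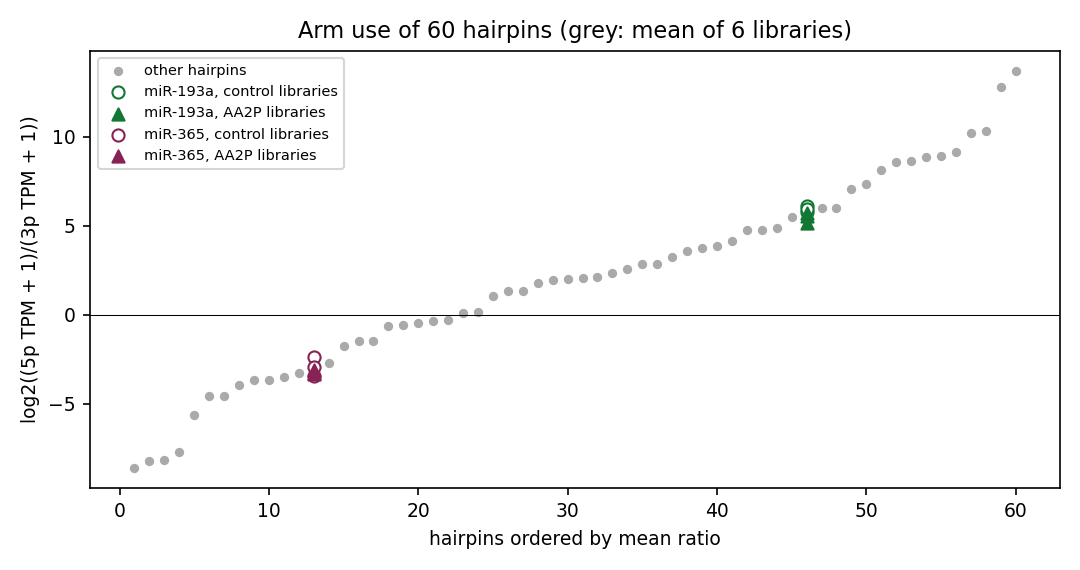
Log2 ratio of 5p to 3p TPM (1 TPM added to each) of 60 hairpins in order of their mean, with the 6 libraries shown singly for miR-193a and miR-365. miR-193a lies among the hairpins with a large 5p excess, between 5.13 and 6.11, and miR-365 among those with more of the 3p arm, between -3.45 and -2.37.

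In the deposited TPM the main arms of the neighbouring hairpins lay on opposite sides of their own means in all 6 libraries, but under the 5 other scalings they did so in 2 to 5 libraries, always in control replicate 1 and AA2P replicate 2. Where miR-193a-5p was highest, in control replicate 1, miR-365-3p was lowest, 0.54 below its own mean on the log2 scale while miR-193a-5p was 0.27 above its mean. In AA2P replicate 2 they lay 0.27 above and 0.20 below. The log2 ratio of miR-365-3p to miR-193a-5p was 0.21, 1.32 and 0.66 in controls and 1.28, 1.49 and 1.17 with AA2P. The means differed by 0.58, but control replicate 2 lay among the AA2P libraries, with p = 0.3 by an exact permutation test (two-sided) and 0.6 adjusted over 6 pairs.

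Ratios were compared for all 6 pairs of members. Groups separated for miR-365-5p to miR-193a-5p, from -2.20 ± 0.0925 to -1.92 ± 0.117, and for miR-193a-5p to miR-193a-3p. Both gave p = 0.1 in this exact permutation test, the smallest value 3 against 3 libraries allow, and 0.3 when adjusted over the 6 pairs. The separation of the miR-193a arms needs the added 1 TPM, as their plain ratios overlap. The plain ratios of miR-365-5p to miR-193a-5p do not overlap. With 0.1 or 0.5 TPM added the adjusted p of this exact permutation test was 0.6 for both pairs, as the adjustment takes all 6 pairs together. For the other 4 pairs the same exact permutation test gave p = 0.3 to 0.7.

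The distance between the main arms of neighbouring hairpins was set beside other such pairs. The root mean square distance over the 6 libraries, after centring each miRNA on its own mean of log2(TPM + 1), was 0.44 for miR-365-3p and miR-193a-5p. It was the widest of 20 pairs of hairpins that follow each other in the RefSeq annotation within 50 kb and have a mean of at least 10 TPM. The median of the 20 pairs was 0.19 and the narrowest, miR-23a with miR-27a, 0.067. miR-221-3p with miR-222 was at 0.20 and miR-19b with miR-92a, next to the widest, at 0.38. The pair was the widest of the 20 with each library left out in turn, at 0.28 without control replicate 1 and 0.43 to 0.48 otherwise. It was also the widest under 4 of the 5 other scalings, and the second with quantile normalization (0.40). This comparison was added after the values were seen and has no test. For entries with several copies, miR-365 among them, reads from loci outside the pair cannot be told apart. The 5p arm of miR-365 lay closer to miR-193a-5p, at 0.16.

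**Figure D5:**
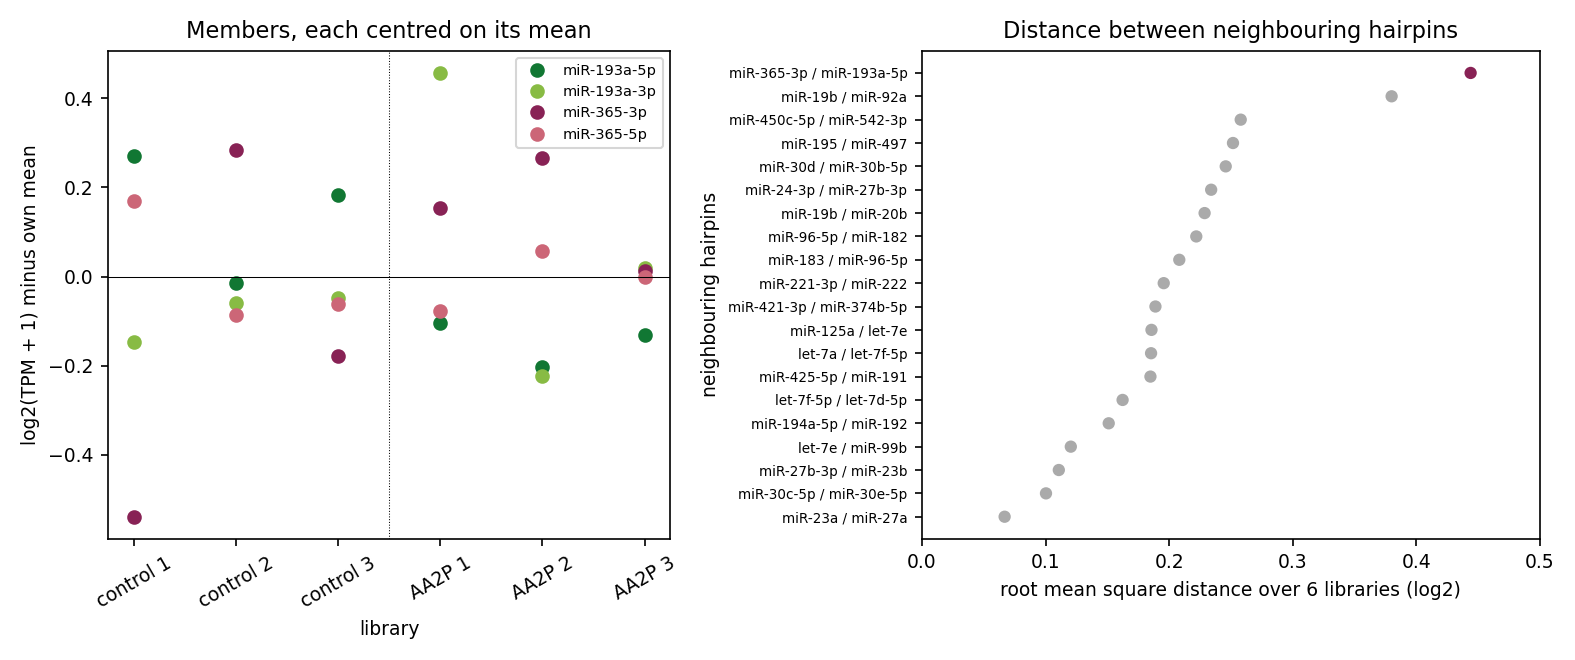
Left, log2(TPM + 1) of each member minus its own mean in each library; right, the root mean square distance between the main arms of 20 pairs of neighbouring hairpins. miR-365-3p and miR-193a-5p lie on opposite sides of 0 in all 6 libraries of the deposited TPM (2 to 5 under the other scalings), and their distance of 0.44 is the largest of the 20.

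By the same distance, the known miRNAs most like each member over the 6 libraries were taken from 201 with a mean of at least 10 TPM. miR-193a-5p was nearest to miR-31 at 0.036, the smallest of these distances, then to miR-29a-3p at 0.070 and miR-345-3p at 0.082, where the median of the 201 was 0.32. miR-31, a miRNA best known from epithelia and tumours, had 842.72, 675.5 and 802.53 TPM in controls and 652.56, 641.42 and 631.4 TPM with AA2P, and was not called in the deposited TPM (log2 fold change -0.26, limma adjusted p = 0.0984). Like miR-193a-5p, both miR-31 (-0.71 to -0.46) and miR-345-3p passed as lower under the 5 other scalings. As these miRNAs were picked for likeness over the same 6 libraries, such shared differences follow from the choice. miR-29a-3p, which represses collagens and MCL1, was called as lower (-0.42, adjusted p = 0.0183), also under the 5 other scalings. miR-365-3p had no close partner, with miR-1839-5p, miR-129a-3p and miR-342 at 0.18 each. miR-365-5p was nearest to miR-423-3p at 0.063, then to miR-296-3p and miR-24-1-5p, and miR-193a-3p to miR-101 at 0.062, then to miR-455-3p and miR-130b-3p. None of these last 9 was called in the deposited TPM, and miR-296-3p and miR-24-1-5p each passed as lower under 3 of the 5 other scalings.

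Other miRNAs known to repress the same targets were read from lists chosen by name. All lists were drawn up with earlier results of these data known, so their counts and medians are descriptive and test no enrichment. Of 8 miRNAs that repress KIT or MCL1, 6 were tested and 4 were lower with AA2P, with a median log2 fold change of -0.52 beside 0.25 for all entries, of which 4.85% were called lower. The 4 belong to 2 groups, the miR-221 and miR-222 cluster and the miR-29 family. miR-222, which represses KIT, was at 5131.68, 4354.21 and 4711.42 TPM in controls and 1474.08, 1883.1 and 1921.97 TPM with AA2P (log2 fold change -1.43), and its cluster partner miR-221-3p fell from 6032 ± 1019 to 2783 ± 204 TPM (SD, 3 libraries per group). On the log2 scale miR-29a-3p and miR-29b fell by 0.42 and 0.63 (limma adjusted p = 0.0183 and 0.0313), while miR-29c (-0.32) and miR-101 (0.14) did not pass. The 4 falls also passed under the 5 other scalings, and miR-29c passed as lower under 4 of them. miR-193a-3p itself, at 0.17, did not pass.

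Of 12 miRNAs that repress cyclin D1 like miR-365-3p, 11 were tested. miR-424-5p (log2 fold change 0.62, limma adjusted p = 0.0383) and miR-503 (0.52, adjusted p = 0.0176), which share a cluster, rose and none fell, with a median of 0.32 beside 0.25 for all entries. These 2 of 11 are close to the 19.9% of all tested entries that were called higher. miR-424-5p passed under none of the 5 other scalings (0 of 5) and miR-503 under 1. The most abundant of the list, miR-20a-5p at 5770 ± 1123 and 6017 ± 314 TPM, miR-17-5p at 3906 ± 532 and 4156 ± 196 TPM and miR-16 at 634 ± 60.6 and 814 ± 125 TPM (SD, 3 libraries per group), were not called. miR-34a, close behind miR-365-3p in level, was at 295 ± 33.8 and 384 ± 32.2 TPM and was not called either (adjusted p = 0.0577).

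Of 15 miRNAs linked to brown fat, where a miR-193 and miR-365 cluster is known, 11 were tested. miR-30c-5p rose (log2 fold change 0.74, limma adjusted p = 0.00962) and miR-155-5p, which holds back brown fat differentiation, fell (-0.61, adjusted p = 0.0159), both also under the 5 other scalings. These 2 of 11 lie near the background of 24.7%. The other 9 did not pass, among them miR-27a at 5697 ± 138 and 4871 ± 405 TPM, which passed as lower under 4 of the 5 other scalings, miR-27b-3p at 8537 ± 79.1 and 10364 ± 1349 TPM and miR-182 at 6662 ± 413 and 6310 ± 1034 TPM, which passed as lower under 1 of the 5. miR-378 passed as lower under 2 of the 5. The median was 0.27, beside 0.25 for all entries.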

How the data were processed

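The authors deposited 1 table of TPM for 6 small RNA libraries, rounded to 2 decimals, each column with the same total. Per the submitters' processing notes Bowtie was among the tools. The sources used here do not give the genome build, the miRBase release or the handling of shared reads. Low values step by 1 amount per library, which gave the depths. Reads carry no molecular identifiers and may repeat a molecule, so intervals and limits hold for counting error alone, and 3 reads, the limit that a count of 0 allows, are 0.0834 to 0.116 TPM. Of the values, 98.8 to 99.7% lay within 0.0051 TPM of whole reads, where rounding alone gives 26.3 to 36.7%. No count test was run.

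limma 3.58.1 in R 4.3.3, with a mean-variance trend, compared the groups on log2(TPM + 1), a scale that understates changes of low entries, two-sided with Benjamini-Hochberg adjustment over all tested entries. Arm ratios were fitted likewise over hairpins. The code was tested on simulated data. An entry with no arm stood for the arm not listed. Chi-square per degree of freedom between libraries of a group was 98.8 to 621, so none repeats another.

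The members and the lists were chosen with earlier results of these data known. Named were all members, called and up to 4 top members of each list, and the 3 miRNAs nearest each member. miR-29c, miR-378 and the neighbour pairs were named after their values were seen. Alternatives were other pseudocounts, filters, scalings, fits and left-out libraries. Deviations of same-numbered libraries correlated at 0.29, 0.063 and 0.18, not all over 0.1, so no block was used.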

Additional observations from a re-analysis of the deposited data

How the results depend on the processing

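Over 21 alternatives miR-193a-5p was lower with AA2P in each, and passed in 7. The log2 fold change was -0.60 with trimmed-mean scaling, -0.58 with median-of-ratios scaling, -0.45 with quantile normalization, -0.59 with totals without miR-21-5p, -0.49 with totals without the 10 most abundant entries and -0.29 with at least 10 TPM required, where fewer entries were tested, and -0.37 to -0.23 with each library left out. miR-365-3p changed sign with trimmed means (-0.023), median ratios (-0.0010) and totals that omit miR-21-5p (-0.0063). So did miR-193a-3p with trimmed-mean (-0.057) and median-of-ratios scaling (-0.041), quantile normalization (-0.0025), totals without miR-21-5p (-0.041) and left-out libraries (-0.016 to 0.32). miR-365-5p went from -0.061 to 0.066 over left-out libraries. None of these 3 passed under any alternative.

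The arm difference of miR-365 was -0.56 to -0.025 and that of miR-193a -0.59 to -0.30 over left-out libraries. The alternatives of the latter were chosen after seeing the data. With both arms at a mean of at least 50 TPM neither hairpin could be fitted. Over left-out libraries the ratio of miR-365-5p to miR-193a-3p was -0.37 to 0.037 and that of miR-365-3p to miR-193a-3p -0.096 to 0.32.

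The count of calls, 107 in the deposited TPM, was 57 with no filter, 62 to 98 with each library left out (62 without control replicate 3) and 63 with the replicate number as a block, which called no member. Not every library correlated best with its own number (control replicate 2 with AA2P replicate 3, 0.11). Leaving a library out assumes equal spread in both groups. The cause of these shifts was not tested. As 1 TPM stands for 25.8 to 36.0 reads, miR-193a-3p rests on 59 to 107 reads per library. The part of depth in its spread was not tested.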
